A study of Rattus norvegicus with 12 samples.

Results

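Cxcl10 (ENSRNOG00000022256) and Cxcl11 (ENSRNOG00000022298) encode chemokines that bind the receptor Cxcr3. They are 2 of the 26405 genes counted in each library, and both are among the 11498 genes that passed the filter on low counts. Both were selected on their measured levels in these same libraries. Their differences between compartments are therefore given with errors as a description, without a test. The pairing of the 2 identifiers with the names came with that selection and was not checked against a table, since 0 of the 47357 rows of the RefSeq gene table used here hold an Ensembl identifier.

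The libraries were made from CD4+ T cells with specificity for myelin basic protein, a component of the myelin sheath. The cells carried green fluorescent protein and were sorted in the cold from Lewis rats, labelled wild type, during experimental autoimmune encephalomyelitis, an inflammatory disease of the central nervous system (CNS) that serves as a model of multiple sclerosis. All 12 libraries share this strain, genotype, cell type and disease, and differ by the place of origin, which was blood, cerebrospinal fluid (CSF), spinal cord meninges or CNS parenchyma, with 3 libraries each. Age, disease stage, the number of cells and the number of rats behind a library are not stated in the labels, nor is the way the cells were made to carry the fluorescent protein, so the spread between libraries may be partly technical. Total gene counts were 11277725 to 22056664 per library. Entries that the files list as aligned to more than 1 place made up 35.8% to 43.9% of 10 libraries, but 65.2% of blood replicate 3 and 61.4% of meninges replicate 2.

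Cxcl10, Cxcl11 and the related Cxcl9 are small chemokines that cells make in response to interferons, above all interferon gamma. They attract cells that carry Cxcr3, which is present on activated T helper 1 cells among others, and Cxcl11 also binds the scavenging receptor Ackr3. In the inflamed CNS, astrocytes, microglia and infiltrating myeloid cells are known sources of Cxcl10. Cxcl9, Cxcr3, Ackr3, the interferon pathway and the marker genes of T cells, myeloid cells, glia and other cell types could not be matched to identifiers. The labelled cell type was therefore not checked against markers, and the part that RNA of other cells in the sort may have in the levels below was not tested. In such bulk libraries, fewer cells with the RNA and less RNA per cell cannot be told apart.

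The RefSeq annotation of the rat genome build GRCr8 places the 2 genes next to each other on chromosome 14, Cxcl11 first, then Cxcl10 and then Cxcl9, all on the plus strand. Both members lie within the span of Art3, an ADP-ribosyltransferase gene on the minus strand. That span includes introns, and whether exons of Art3 overlap those of the 2 genes was not examined. Whether the deposited counts used strand was not given in the sources used here, and without strand the reads of a gene and of an overlapping antisense gene cannot be told apart. The 250 bases before each start site are shown because the levels of the 2 genes followed the same order of compartments. They are taken from RefSeq, build GRCr8, which may not be the build of the deposited counts. Capitals mark matches to the motifs searched, on either strand. The Cxcl10 stretch is chr14:15988816-15989065 and the Cxcl11 stretch is chr14:15973478-15973727, both on the plus strand, 5′ to 3′.
Cxcl10: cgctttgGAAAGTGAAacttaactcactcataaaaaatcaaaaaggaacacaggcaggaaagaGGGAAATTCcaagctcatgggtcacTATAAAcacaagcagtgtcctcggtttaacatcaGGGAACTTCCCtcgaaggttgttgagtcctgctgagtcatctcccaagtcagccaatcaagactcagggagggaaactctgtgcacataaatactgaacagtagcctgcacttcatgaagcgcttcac
Cxcl11: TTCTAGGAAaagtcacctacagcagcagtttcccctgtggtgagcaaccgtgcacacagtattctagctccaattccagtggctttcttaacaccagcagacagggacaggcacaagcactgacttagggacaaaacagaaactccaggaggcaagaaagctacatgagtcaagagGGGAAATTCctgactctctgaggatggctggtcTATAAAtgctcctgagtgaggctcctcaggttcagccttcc

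The kB-like motif GGGNNNTTC, written after the sites of NF-kB, had 3 matches before Cxcl10, of which 2 on opposite strands overlap, and 1 match before Cxcl11. Of the 33469 promoters in the RefSeq table, 11.9% held at least 1 such match in the same window and 0.804% held 2 or more. The longest run that both windows share is 10 bases, GGGAAATTCC, which covers a kB-like match in each. It begins 187 bases before the start of Cxcl10 and 74 bases before the start of Cxcl11, and 0.0896% of all promoters hold it on either strand. The run was picked because both windows hold it, so this percentage does not measure how unusual the sharing is. The longest runs shared by other pairs of promoters were not computed. The ISRE-like motif GAAANNGAA, written after the interferon-stimulated response element, matched once before Cxcl10, from 243 to 235 bases before the start, and 0 times before Cxcl11. It was present in 8.12% of promoters. The GAS-like motif TTCNNNGAA, written after sites of STAT factors and the same on both strands, matched 0 times before Cxcl10 and once before Cxcl11, from 250 to 242 bases before the start, against 7.67% of promoters. TATAAA matched once in each window, from 41 to 36 bases before the start of Cxcl11 and from 162 to 157 before that of Cxcl10, and was found in 12.9% of promoters. These matches describe letters in the windows and say nothing of binding in these cells.

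Levels of both genes were lowest in blood T cells, higher in CSF and meningeal cells and highest in cells from the parenchyma. Levels are given as CPM, the counts of a gene per 1000000 gene counts of the library, after scaling with edgeR's TMM method. Blood cells had 0.650 ± 0.626 CPM of Cxcl10 (SD, n = 3) and CSF cells 3.16 ± 0.489 CPM. Meningeal cells had 4.98 ± 3.20 CPM and parenchymal cells 32.3 ± 1.86 CPM. Cxcl11 had 0 counts in blood cells, 0.290 ± 0.294 CPM in CSF cells, 1.11 ± 0.539 CPM in meningeal cells and 14.7 ± 6.96 CPM in parenchymal cells. In both genes every parenchyma library lay above every other library, every blood library lay below all others, and the CSF and meninges libraries overlapped. Of all genes tested, 192 (1.67%) had these same separations and this same overlap. For Cxcl11 the separation of CSF replicates 2 and 3 from blood rests on 2 reads each. The plot of levels by library shows these values.

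**Figure D1:**
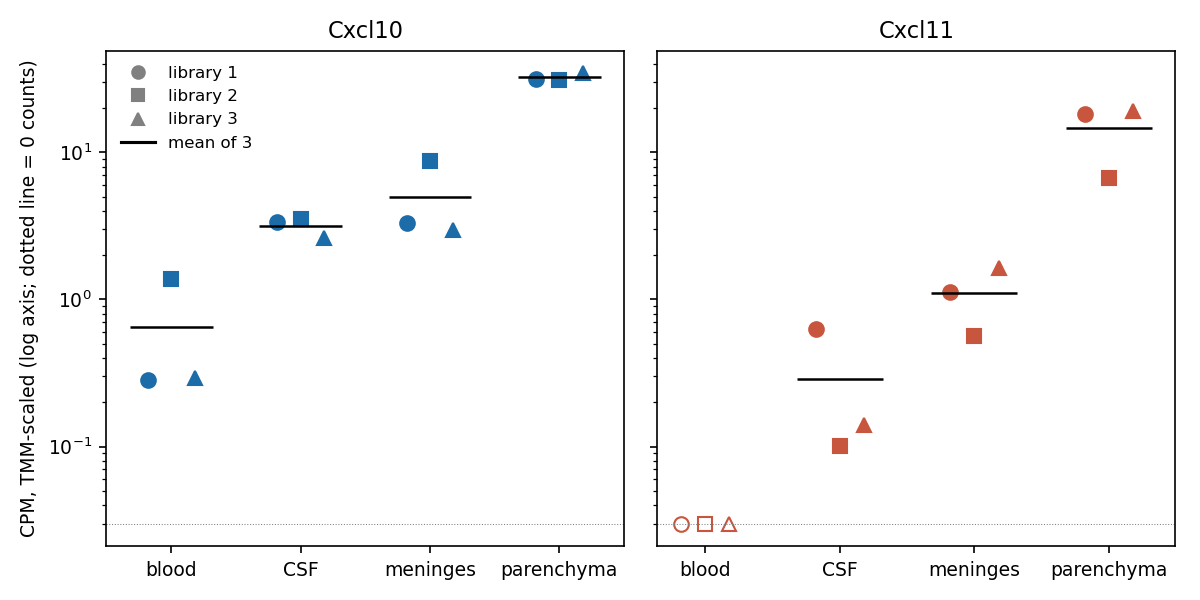
CPM of Cxcl10 (left) and Cxcl11 (right) in each of the 12 libraries on a log axis, by compartment, with the library number as symbol and a line at each mean of 3 libraries. Open symbols on the dotted line are libraries with 0 counts. The parenchyma libraries stand highest in both genes, and Cxcl11 has 0 counts in all 3 blood libraries.

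Cxcl10 in blood rested on 5, 24 and 4 reads in replicates 1, 2 and 3, or 0.283, 1.37 and 0.294 CPM. Replicate 2 thus stood apart from the other two, which lay close together. CSF libraries held 75, 70 and 37 reads, or 3.37, 3.51 and 2.60 CPM, and had a narrow spread. In meninges the counts were 38, 108 and 47, or 3.30, 8.67 and 2.96 CPM. Meninges replicate 2, which also had the 61.4% share of entries aligned to more than 1 place, was the high library, and the other two lay within the CSF range. Parenchyma libraries held 473, 459 and 610 reads, or 31.3, 31.1 and 34.4 CPM, and differed little, with a coefficient of variation of 5.75% against 96.3% in blood, 15.5% in CSF and 64.3% in meninges.

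Cxcl11 had 0 reads in each blood library. A count of 0 allows up to 3 reads over the 3 blood libraries together, or 0.0615 CPM, and this limit covers counting error only. CSF libraries held 14, 2 and 2 reads, or 0.629, 0.100 and 0.141 CPM, so that replicate 1 supplied 14 of the 18 reads. In meninges the counts were 13, 7 and 26, or 1.13, 0.562 and 1.64 CPM, and replicate 2 was the lowest where it had been the highest for Cxcl10. Parenchyma libraries held 276, 99 and 340 reads, or 18.3, 6.70 and 19.2 CPM. Replicate 2 was again the lowest, although its Cxcl10 level was near that of the other two, and the coefficient of variation of Cxcl11 in parenchyma was 47.3%. In all 3 CNS compartments the library numbered 2 was thus the lowest for Cxcl11, which held for 14.3% of all genes tested and not for Cxcl10.

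From blood to CSF the 2 genes differed in what can be measured, since Cxcl11 had no reads in blood. Cxcl10 was higher in CSF by 2.24 on the log2 scale (SE 0.52), a 4.71-fold difference. The value was 3.45 without blood replicate 2 and 1.84 without blood replicate 1. Cxcl11 in CSF was at least 4.72-fold higher than the limit that 0 reads allow in blood, a log2 bound of 2.24. Without CSF replicate 1 the bound was 0.97. It then rests on 2 reads each in CSF replicates 2 and 3, for which no counting interval was computed. Such bounds take the reads of the higher group as exact. The exact 95% binomial interval of the count ratio, 18 against 0 reads, began at 3.80. The 3 CSF libraries lay above the 3 blood libraries in both genes, as for 23.7% of all genes tested. For Cxcl11, CSF replicates 2 and 3 held 2 reads each, at 0.100 and 0.141 CPM. That is below the 0.151 and 0.211 CPM of 3 counts in these libraries, so their separation from 0 reads is within counting error. Among all genes the Cxcl10 difference was the 81st highest. Both genes were selected on these same levels, so this rank and those below are a description and no support.

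Meningeal cells, set against blood cells, had higher levels of both genes. The Cxcl10 difference was 2.86 (log2, SE 0.51) and the 95th highest of all genes. It was 4.07 without blood replicate 2, 2.21 without meninges replicate 2 and 1.93 without the 2 libraries with most entries aligned to more than 1 place. Cxcl11 was at least 18.1-fold higher in meninges when set against the blood limit, a log2 bound of 4.17, and its count ratio had a counting interval that began at 14.7. Neither gene overlapped between the groups, which was so for 23.5% of all genes with meninges higher.

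Between CSF and meninges the libraries of both genes overlapped, whereas 11.5% of all genes had all 3 meninges libraries above all 3 CSF libraries. Cxcl10 differed by 0.62 (log2, SE 0.39) in favour of meninges, with the meninges library higher in 5 of 9 pairs of libraries, and without meninges replicate 2 the difference was -0.04. Cxcl10 thus gave no step between these compartments that exceeded the spread between libraries. Cxcl11 was higher in meninges by 1.83 (log2, SE 0.77). With 1 library left out this ran from 1.39, without meninges replicate 3, to 3.19, without CSF replicate 1. The meninges library was higher in 8 of 9 pairs. The exception among these pairs was meninges replicate 2, at 0.562 CPM, against CSF replicate 1, at 0.629 CPM. Within each library number, Cxcl11 was higher in meninges in 3 of 3, and Cxcl10 for numbers 2 and 3 but not 1. On the counts alone, 46 against 18 reads, the ratio of Cxcl11 had an exact 95% binomial interval from 2.06 to 6.63. That of Cxcl10, on 193 against 182 reads, ran from 1.22 to 1.85. Both intervals lay above 1, but they cover counting error only and not the spread between libraries.

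Cells from the parenchyma stood well above meningeal cells in both genes. The difference was 2.71 (log2, SE 0.34) for Cxcl10, a 6.55-fold difference, and 3.68 (log2, SE 0.50) for Cxcl11, a 12.9-fold difference. Ranked from the highest value down, Cxcl11 was the 9th and Cxcl10 the 38th of all genes tested. Cxcl11 passed the filter on low counts largely through its parenchyma libraries, where it is highest, so a high rank here follows in part from the filter. Without meninges replicate 2 the Cxcl10 value was 3.37, and without meninges replicate 3 it was 2.42. It was 3.36 without the 2 libraries with most entries aligned to more than 1 place. The libraries did not overlap in either gene, which 15.4% of all genes shared in this direction.

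Parenchyma set against CSF gave 3.33 (log2, SE 0.35) for Cxcl10 and 5.51 (log2, SE 0.58) for Cxcl11, which were 10.1-fold and 45.7-fold differences. They ranked 90th and 15th among all genes, and 22.1% of genes had all parenchyma libraries above all CSF libraries, as both members did. The Cxcl11 value rests on 18 CSF reads and was 6.88 without CSF replicate 1 and 5.07 without CSF replicate 2. Compared with blood, parenchyma was higher by 5.57 (log2, SE 0.44) for Cxcl10, a 47.4-fold difference on 1542 against 33 reads. Without blood replicate 2 this was 6.78, and without blood replicate 1 it was 5.17. Cxcl11, on 715 against 0 reads, was at least 239-fold higher when set against the blood limit, a log2 bound of 7.90, and its count ratio had a counting interval that began at 198. Both genes again had separate libraries, as did 28.1% of all genes with parenchyma higher. The bounds of Cxcl11 against blood were lower without any 1 of the blood replicates, because the 3 allowed reads then stand over fewer reads in total. With blood replicate 1, 2 or 3 left out they became 1.59, 1.61 and 1.77 for CSF. They became 3.52, 3.54 and 3.70 for meninges, and 7.25, 7.27 and 7.43 for parenchyma.

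**Figure D2:**
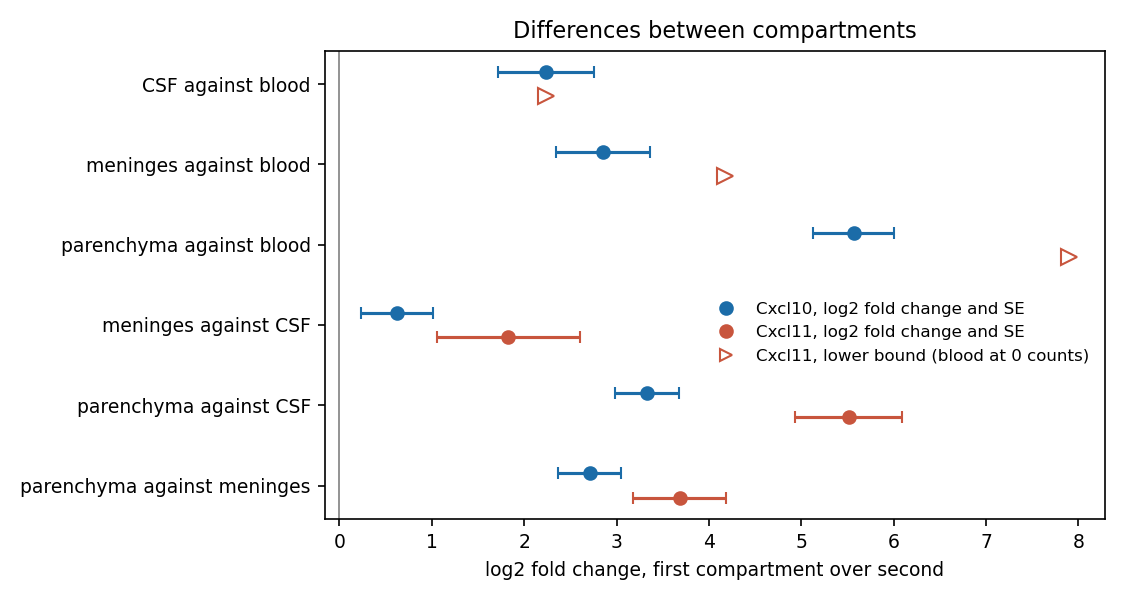
Log2 fold changes of Cxcl10 and Cxcl11 in the 6 comparisons of compartments, with bars of 1 SE from the fit, and open triangles for lower bounds of Cxcl11 where blood had 0 counts. The values lie to the right of 0 throughout. Cxcl11 lies to the right of Cxcl10 by 2.18 between parenchyma and CSF. The gap of 0.97 between parenchyma and meninges was 0.0097 without meninges replicate 2.

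**Figure D3:**
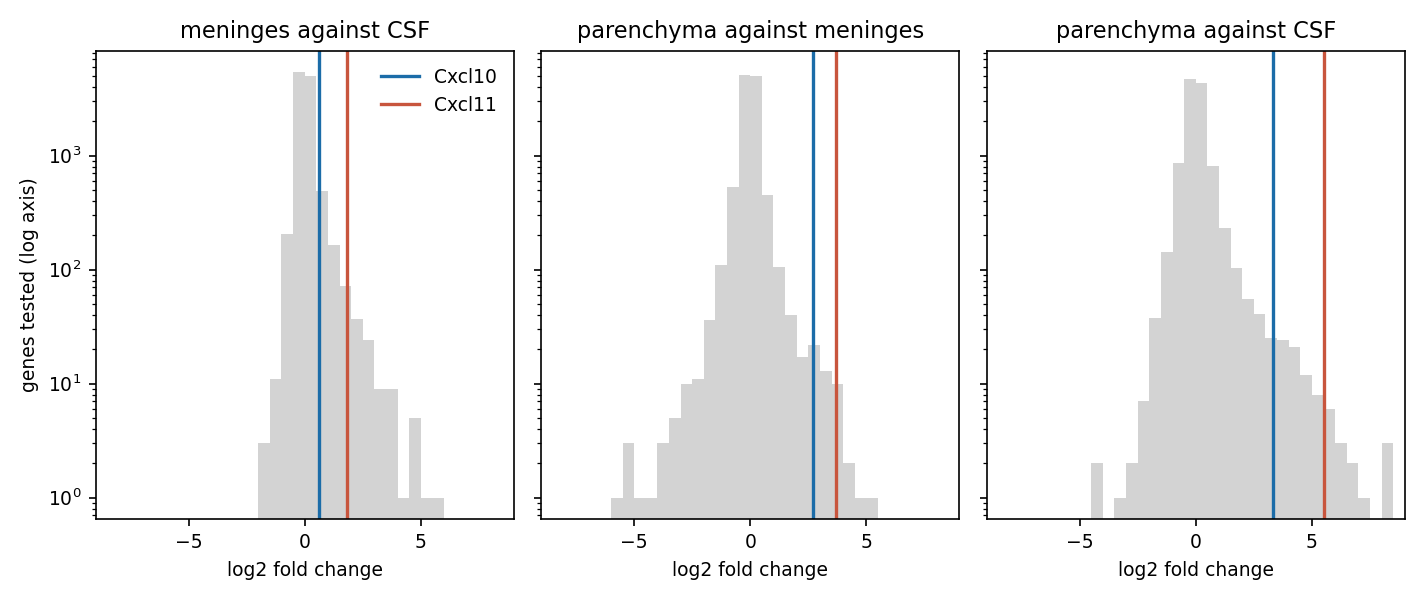
Number of genes tested (log axis) by log2 fold change, for meninges against CSF, parenchyma against meninges and parenchyma against CSF, with the values of Cxcl10 and Cxcl11 as vertical lines. Both members lie in the upper tail for parenchyma against meninges and against CSF. For meninges against CSF the line of Cxcl10, at 0.62, lies closer to the bulk of the genes than that of Cxcl11, at 1.83.

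Both genes thus had blood lowest and parenchyma highest, with CSF and meninges between them. Of the summed log2 difference of Cxcl10 from blood to parenchyma, 5.57, the step from blood to CSF made up 40.2%, the step from CSF to meninges 11.1% and the step from meninges to parenchyma 48.7%. Which step was the larger depended on single libraries. Without blood replicate 2 the first and last steps made up 50.9% and 40.0%, and without meninges replicate 2 the last made up 60.4% and the middle step was slightly below 0. No such division can be given for Cxcl11, whose first step has only a lower bound. Where both can be measured, the log2 difference of Cxcl11 was greater than that of Cxcl10 by 1.21 from CSF to meninges, by 0.97 from meninges to parenchyma and by 2.18 over both steps together. The first 2 gaps rest on single meninges and CSF libraries. The gap at the last step was 0.0097 without meninges replicate 2 (3.38 for Cxcl11 and 3.37 for Cxcl10), the same without the 2 libraries with most entries aligned to more than 1 place, and 1.71 without meninges replicate 3. From CSF to meninges it was 0.47 without meninges replicate 3, 2.17 without meninges replicate 2 and 2.53 without CSF replicate 1. Over both steps it ran from 1.67 to 3.50 in all 20 alternatives, the highest without CSF replicate 1 and the lowest without CSF replicate 2. Per library, the log2 ratio of Cxcl11 to Cxcl10 reads, with 0.5 added to each count, was -3.70 ± 1.23 (SD, n = 3) in CSF, -2.07 ± 1.58 for meninges and -1.28 ± 0.81 for parenchyma. The differences between neighbouring compartments were thus close to or below the spread between libraries.

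The share of Cxcl11 in the counts of both genes compares them within a library and does not depend on how libraries are scaled. It is not corrected for transcript length, so that it can be compared between libraries but does not give the molar ratio of the 2 RNAs. CSF libraries had a share of 7.88% ± 6.90 (SD, n = 3), meninges libraries 22.4% ± 15.0 and parenchyma libraries 30.1% ± 10.7. In blood it was 0 of 33 reads, which allows a share of up to 9.09%, above the CSF mean. A difference in share between blood and CSF was thus not detectable at this depth.

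By library the share was 15.7% (exact 95% binomial interval 8.88% to 25.0%), 2.78% (0.338% to 9.68%) and 5.13% (0.627% to 17.3%) in CSF replicates 1, 2 and 3. In meninges it was 25.5% (14.3% to 39.6%), 6.09% (2.48% to 12.1%) and 35.6% (24.7% to 47.7%). In parenchyma it was 36.8% (33.4% to 40.4%), 17.7% (14.7% to 21.2%) and 35.8% (32.7% to 38.9%). The library numbered 2 had the lowest share in each of the 3 compartments, and in parenchyma and meninges its interval did not meet those of the other two. The ranges of neighbouring compartments overlapped, and so did those of CSF and meninges in particular, from 2.78% to 15.7% and from 6.09% to 35.6%. Parenchyma libraries, at 17.7% to 36.8%, all lay above the CSF libraries.

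Compared within a library number, the share was higher in meninges than in CSF by 9.76, 3.31 and 30.5 percentage points for numbers 1, 2 and 3. From meninges to parenchyma it was higher by 11.4, 11.7 and 0.173 percentage points. The direction was the same in all 3 numbers at both steps, but most of these differences were within counting error. The counting intervals overlapped between CSF and meninges for numbers 1 and 2 and between meninges and parenchyma for numbers 1 and 3. Without CSF replicate 1 the mean share in CSF was 3.95%. Without the libraries numbered 2, a choice made after seeing the data, it was 10.4% for CSF, 30.6% for meninges and 36.3% for parenchyma.

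**Figure D4:**
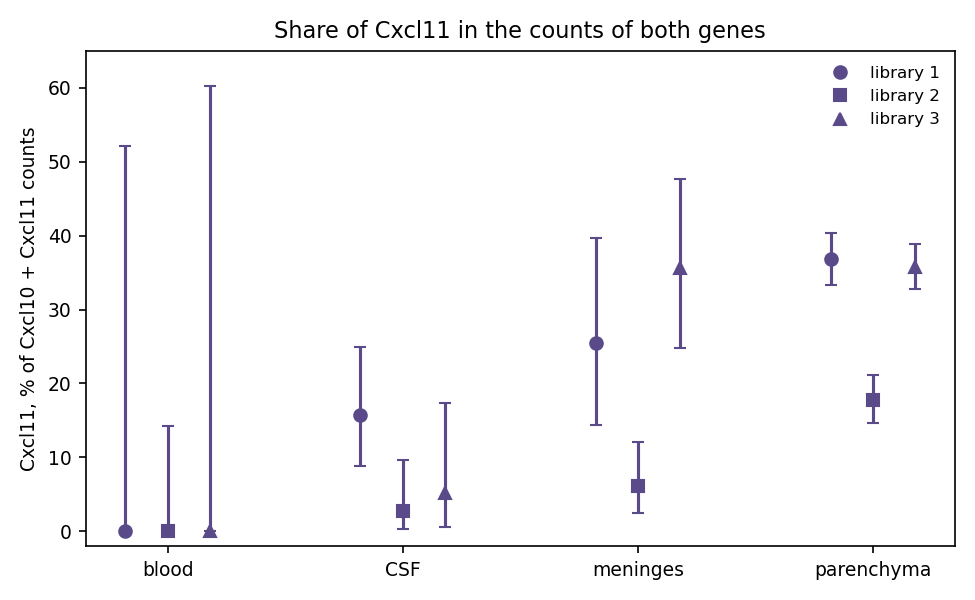
Cxcl11 counts as a percent of the summed counts of Cxcl10 and Cxcl11 in each library, with exact 95% binomial intervals (bars) and the library number as symbol. The library numbered 2 is the lowest of CSF, meninges and parenchyma, at 2.78%, 6.09% and 17.7%, and the blood libraries are at 0 with wide intervals.

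The likeness of 2 genes was measured as the root mean squared difference of their log2 CPM over the 12 libraries, after each gene was centred on its own mean. Cxcl10 and Cxcl11 differed by 1.14 log2 units on this measure. Cxcl11 was the 58th most like gene to Cxcl10 of 11497, for which the median gene differed by 2.10. Cxcl10 was the 23rd most like to Cxcl11, for which the median was 2.59. Both genes were selected on their levels in these libraries, so being more alike than the median gene follows in part from that selection. The gene most like Cxcl10 was ENSRNOG00000014387, at 0.592 log2 units. Blood cells had 1.11 ± 0.777 CPM of it (SD, n = 3), CSF cells 4.95 ± 3.54, meningeal cells 7.51 ± 4.58 and parenchymal cells 30.2 ± 13.7. The gene most like Cxcl11 was ENSRNOG00000012749, at 0.662 log2 units. Blood cells had 0.0999 ± 0.115 CPM of it, CSF cells 0.140 ± 0.0397, meningeal cells 0.934 ± 0.332 and parenchymal cells 10.1 ± 3.96. These 2 genes were picked for their likeness, so their similar order of compartments is no separate result. Their names are not given, as no table used here pairs their identifiers with names.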

How the data were processed

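Whole-number read counts per Ensembl rat gene were deposited for each of 12 libraries, without normalization. Per the submitters' processing notes, the authors used HTSeq, STAR, SAMtools, DESeq2 and CASAVA 1.8.2, with no role given for any. Build, annotation release and strand setting were not given in the sources used here. The 5 summary lines closing each file were left out of library sizes.

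The analysis used edgeR 4.0.16 under R 4.3.3. Genes with few counts were removed (filterByExpr), libraries were scaled by TMM, and 1 quasi-likelihood fit over all 12 libraries had the compartment as its term. SEs came from the F statistic, with a prior count of 0.125 for fold changes and of 2 for likeness. The fit was tested on simulated data with independent libraries and changes smaller than those of both genes towards parenchyma. That run did not check the SEs of differences as large, or of compartments with few reads. No library was identical to another. Against a compartment at 0 counts, the mean CPM of the other was divided by 3 counts over the libraries at 0. Counting intervals are exact binomial intervals that take reads as independent and cover counting error alone. Without molecular identifiers, copies of 1 molecule can be counted as separate reads, so these intervals may be too narrow. In a single library 3 counts correspond to 0.135 to 0.261 CPM.

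The 2 members, the lists and the comparisons were chosen with earlier results of these data known. Named genes were to be the members, genes of fixed lists and the genes most like each member. The lists need names, 0 of their genes were matched, and no list was tested. Of the genes most like each member, 1 is printed.

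Library numbers come from the titles. Deviations from compartment means were correlated across genes between libraries of the same number. The correlations were 0.149 to 0.450 in 5 of the 6 comparisons and 0.0766 to 0.252 for meninges against blood. For meninges against blood 2 of 3 libraries correlated best with the library of the same number, and in each other comparison 3 of 3 did. The numbers may thus pair libraries. A pairing would have to hold in all 6 comparisons, and it was least clear for meninges against blood. The SEs given come from the fit without pairing. The labels do not state a pairing. Alternatives were other scalings, DESeq2 1.42.0, no filter, a prior count of 2, a replicate block and leaving out libraries.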

Additional observations from a re-analysis of the deposited data

How the results depend on the processing

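The order of compartments kept its direction in both genes under the alternatives run, except for Cxcl10 between CSF and meninges. That log2 difference, 0.62, was -0.036 without the 2 libraries with most entries aligned to more than 1 place and ran from -0.036 to 0.91 with 1 library left out, the lowest without meninges replicate 2. The bound of Cxcl11 for CSF against blood ran from 0.97 to 2.65 with 1 library left out. The lowest, without CSF replicate 1, takes the 2 reads each of CSF replicates 2 and 3 as exact, so its direction leaves out their counting error. Without the 4 libraries numbered 2, chosen after seeing the data, Cxcl10 for parenchyma against blood was 6.80. The other 239 of 243 recomputed values moved by less than the spread between libraries. This is a weak check, since that spread is wide with so few libraries per compartment. Many of these values also left out a library outside the comparison. Values counted as within the spread include 6.78 for Cxcl10, parenchyma against blood, without blood replicate 2. They also include 6.88 for Cxcl11, parenchyma against CSF, without CSF replicate 1. Library numbers also entered the fit as a replicate block. Cxcl10 then gave 2.26 from blood to CSF, 0.59 from CSF to meninges and 2.77 from meninges to parenchyma. Cxcl11 gave 1.79 and 3.69 for the last 2 of these steps, with no change of direction in either gene. The bounds against blood come from no fit, so the block, the filter, the prior count and DESeq2 gave no value for them. List counts were not run, as no list gene was matched. Depth limits Cxcl11 in blood and CSF and Cxcl10 in blood, which rest on 0, 18 and 33 reads.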
